A study of Drosophila melanogaster with 48 samples.

Results

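The comparison described here is that of *Ptth* mutants with wild type early in the third larval instar (L3E). It rests on 6 of the 48 RNA-Seq libraries of a developmental series, 3 per genotype, and on 12282 of 17558 annotated genes, those with at least 3 FPKM (fragments per kilobase of gene, scaled for depth by the authors) in at least 1 library of the series. The whole series follows 2 genotypes over 8 stages with 3 biological replicates each. Wild-type larvae came from the line labelled wOB, collected 72 h after egg laying (AEL). Mutant larvae came from the line labelled ptth120BC2, collected 96 h AEL. The study counts both as 48 h before pupariation, matching the genotypes by the time left to the larva and not by its age, so in these 6 libraries the genotype and the 24 h of additional age cannot be told apart. The study describes its wild type as w1118 and its mutant as Ptth120F2A, a TALEN-made allele that lacks 7 bp in the final exon. The labels do not use these names, and that they are the lines wOB and ptth120BC2 is an assumption made here. Each replicate is RNA of a pool of whole larvae (about 15 by the labels, 10 to 15 by the study's methods), so the p-values below measure the spread between pools. The sex of the larvae and the batches of library preparation and sequencing are not given in the sources used here.

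Prothoracicotropic hormone (PTTH) is a neuropeptide that a few brain neurons release onto the prothoracic gland. There it binds the receptor tyrosine kinase Torso and, through Ras, Raf and the MAP kinase cascade, raises the synthesis of ecdysone, the moulting hormone. Ecdysone is converted to 20-hydroxyecdysone in peripheral tissues, where it acts through the EcR and Usp receptor pair. In the third larval instar small ecdysone pulses accompany the critical weight, the onset of glue gene expression in the salivary glands and the last feeding and growth period, and a large pulse starts metamorphosis. Larvae without PTTH pupariate late and grow larger. Stage-specific transcripts such as cuticle proteins, hexamerin storage proteins and glue proteins mark where a larva stands between its moults.

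The mutant libraries held 18426810 to 22520433 reads on genes and the wild-type libraries 16712549 to 19550252. Replicates of each group differed by more than sampling noise and each library was kept as 1 replicate. The 10 most abundant genes took 17.2% to 18.6% of the reads of the mutant libraries and 10.8% to 12.2% of those of wild type. Genes that mark muscle, haemocytes, neurons, imaginal discs and Malpighian tubules were detected in every library of both genotypes. Among the 833 genes lower in mutants, wild-type replicate 3 was the lowest of the 3 wild-type libraries in 582 (69.9%), and thus the nearest to the mutants, against 114 for replicate 1 and 137 for replicate 2. Among the 1274 genes higher in mutants, it was the highest of the wild-type libraries in 461 (36.2%), against 460 for replicate 1 and 274 for replicate 2, genes with tied values not being assigned. No library was removed. Without wild-type replicate 3, 913 genes were lower and 1250 higher.

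A gene was called when limma, fitted on log2(FPKM + 1) of the 6 libraries, gave an adjusted p (Benjamini-Hochberg over 12282 genes) under 0.05 and a change above 2-fold. Changes are log2 differences ± SE of mutants from wild type. The added 1 makes those of weakly expressed genes smaller. With 3 libraries against 3, an exact permutation test of a single gene cannot give a p below 0.1, and the p-values here come from the fit across genes. In all, 2107 genes (17.2%) were called, 1274 (10.4%) of them higher and 833 (6.78%) lower in mutants. The median change of all genes tested was 0.02, and the libraries of the genotypes did not overlap for 6628 genes (54.0%), including all 2107 called genes. Where lack of overlap is stated below for a called gene, it therefore describes the values and adds no support to the call. The changes beyond 16-fold lay mostly on one side, with 28 genes higher and 165 lower. Of the genes higher in mutants, 842 had means under 10 FPKM in both genotypes, while 216 of the genes lower in mutants were that weak. With a filter of 3 FPKM in at least 3 of the 6 libraries, 679 genes were higher and 711 lower, which moved the share of higher calls from 60.5% to 48.8%.

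**Figure D1:**
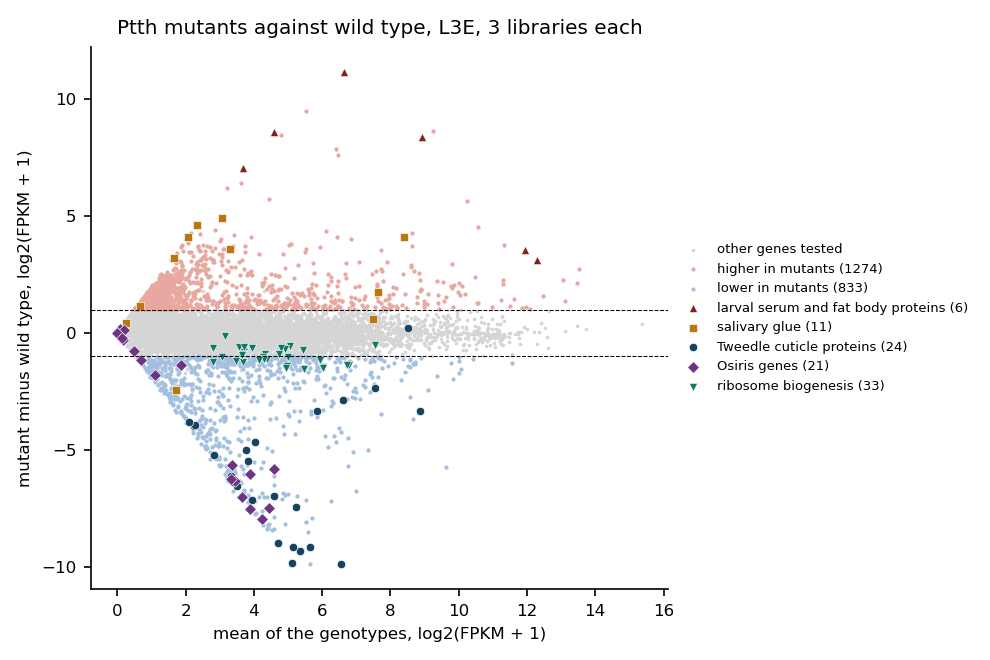
Mean level of each tested gene (x axis, log2(FPKM + 1)) against its change in *Ptth* mutants (y axis, mutant minus wild type, log2(FPKM + 1)), L3E, 3 libraries per genotype. Pale red and pale blue points are the 1274 and 833 called genes, dashed lines mark 2-fold, and the markers show 5 gene lists. All 6 larval serum and fat body genes lie above the upper line, and 23 of 24 Tweedle genes lie below the lower one.

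The first question was whether the machinery around PTTH itself differed. *Ptth* (FBgn0013323, BDGP6, chromosome 2L, 575711 to 576896) was close to the limit of detection in both genotypes, at 0.216, 0.223 and 0 FPKM in wild type and 0.437, 0.282 and 0.370 in mutants. These values rest on 7 and 17 reads over 3 libraries, and the change did not pass the test (log2 0.25 ± 0.095, adjusted p = 0.082). If the line carries the allele that lacks 7 bp, nearly all of the transcript is left to be counted, and reads on the gene do not test the mutation. The receptor gene *tor* was below the level required for testing, with 0.0518 to 0.1404 FPKM in wild type and 0.1125 to 0.2797 in mutants. Of the cascade behind it, *Ras85D* was at 35.2, 34.99 and 39.7 FPKM against 45.7, 45.9 and 44.4 (log2 0.30 ± 0.069, adjusted p = 0.018) and the MAP kinase kinase *Dsor1* at 18.3, 15.9 and 17.7 against 25.1, 23.9 and 23.9 (log2 0.47 ± 0.075, adjusted p = 0.0054). Both were higher in every mutant library than in any wild-type library, by less than 2-fold, and neither was called. The genotypes did not overlap for 54.0% of all genes, so this does not set the 2 genes apart. The Raf gene *phl* and the MAP kinase gene *rl* overlapped between the genotypes.

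Among the PTTH pathway and ecdysteroid genes, 2 of 12 tested were higher (16.67%) and 1 was lower (8.33%). Of all genes, 10.4% were higher and 6.78% lower, so with 12 genes these counts are near those shares. *sro* (shroud), an enzyme of the early steps of the pathway in the prothoracic gland, was at 0.351, 0.327 and 0.507 FPKM in the wild-type libraries and at 21.6, 13.1 and 18.6 in the mutant libraries, 45.0-fold higher (log2 3.73 ± 0.20, adjusted p = 0.00024). *shd* (shade), which converts ecdysone to 20-hydroxyecdysone outside the gland, was at 5.41, 6.91 and 10.9 against 25.6, 25.1 and 27.1 FPKM (log2 1.67 ± 0.23, adjusted p = 0.0034). *Cyp18a1*, which inactivates ecdysteroids, went the other way, at 58.1, 30.3 and 20.8 FPKM in wild type and 2.10, 3.00 and 2.76 in mutants (log2 -3.25 ± 0.38, adjusted p = 0.0018). For all 3 genes every mutant library lay beyond every wild-type library, and within wild type replicate 3 was the nearest to the mutants for each of them. The other synthesis enzymes were not called. *phm* had 2.50, 1.77 and 1.49 against 3.93, 3.58 and 3.79 FPKM (log2 0.72 ± 0.15, adjusted p = 0.013), just under 2-fold, and passed the threshold in limma-voom on recovered reads (log2 1.01, adjusted p = 0.0062). *spok* had 1.15, 1.24 and 1.41 against 2.03, 1.53 and 1.46, and *sad* overlapped, at 1.56, 1.03 and 1.40 against 1.23, 2.11 and 2.27. *nvd*, *spo* and *dib* were too low to be tested. *Oatp74D*, the ecdysone importer, had 17.8, 18.3 and 22.7 against 30.9, 34.2 and 39.6 FPKM (log2 0.80 ± 0.14, adjusted p = 0.0065), apart, as were 54.0% of all genes, but below 2-fold. In whole larvae fewer cells of a type and less RNA per cell cannot be told apart, for the prothoracic gland as for every tissue below.

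Among the genes of the ecdysone response, more were lower than higher in mutants. Of 17 tested, 7 were lower and 1 higher, against 6.78% and 10.4% of all genes, with a median change of -0.67. That median was -0.14 with a filter of 3 FPKM in at least 3 of the 6 libraries and -1.04 in limma-voom. The summed level was 145 to 392.2 FPKM in wild type, with replicate 3 the lowest, and 146 to 177 in mutants. The receptor genes were not among them: *EcR* was at 5.23, 5.06 and 4.75 against 4.53, 5.85 and 7.46 FPKM and *usp* at 15.1, 14.7 and 14.2 against 16.3, 16.7 and 16.02. All 4 ecdysone-inducible Imp genes of discs and epidermis were lower. *ImpL1* was at 182, 103 and 34.99 FPKM in wild type and 0.684, 0.516 and 1.13 in mutants (log2 -5.65 ± 0.60, adjusted p = 0.0014). *ImpE2*, which encodes an apical secreted protein, was at 33.2, 50.4 and 8.004 against 0.412, 0.559 and 0.529 FPKM (log2 -4.07 ± 0.65, adjusted p = 0.0054). In both genes the mutant libraries were alike and far below wild type, while wild-type replicate 3 was the lowest of the wild-type libraries. *ImpE1* and *ImpE3* had smaller changes (log2 -2.19, adjusted p = 0.027 and log2 -1.08, adjusted p = 0.03). The call of *ImpE1* was lost without any 1 library other than wild-type replicate 3 (adjusted p 0.066 to 0.082), and that of *ImpE3* without mutant replicate 2 or 3 or wild-type replicate 1 or 2 (adjusted p 0.077 to 0.094).

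Of 4 genes grouped here as further nuclear receptors, 2 were lower, and so was *Eip78C*, which was grouped with the early genes. *ftz-f1*, which is expressed as ecdysone falls and makes tissues competent for the next pulse, was at 13.6, 10.8 and 5.77 FPKM in wild type and 1.95, 2.38 and 2.70 in mutants (log2 -1.66 ± 0.30, adjusted p = 0.0088). *Hr4* was at 2.81, 3.55 and 1.08 against 0.106, 0.109 and 0.145 (log2 -1.56 ± 0.30, adjusted p = 0.0098) and *Eip78C* at 3.63, 3.65 and 1.21 against 0.216, 0.271 and 0.390 (log2 -1.49 ± 0.31, adjusted p = 0.014). The mutant values of the last 2 genes were all below 0.4 FPKM, and no mutant library reached a wild-type library. *Hr46* (DHR3) had 0.641, 1.80 and 0.252 FPKM in wild type and at most 0.0323 in mutants, and missed the test on the log2(FPKM + 1) scale (adjusted p = 0.074), although it passed in limma-voom on recovered reads (log2 -5.55, adjusted p = 0.03), with a pseudocount of 0.1 (log2 -2.76, adjusted p = 0.019) and without wild-type replicate 3 (log2 -1.08, adjusted p = 0.028). *br* (Broad-Complex), the early gene that specifies the pupal stage, was the member called higher, at 0.983, 1.94 and 2.36 against 4.32, 5.88 and 8.39 FPKM (log2 1.38 ± 0.29, adjusted p = 0.014). *Eip74EF*, *Hr39* and *EcR* overlapped between the genotypes, and *Eip75B* (adjusted p = 0.08) and *Eip71CD* (adjusted p = 0.22) did not pass the test. *Eip93F*, with 3 reads in wild type and 15 in mutants, and *E23* also did not pass (adjusted p = 0.27 and 0.059). In limma-voom on recovered reads *Eip93F* was called higher (log2 1.88, adjusted p = 0.012) and *E23* lower (log2 -1.04, adjusted p = 0.034).

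**Figure D2:**
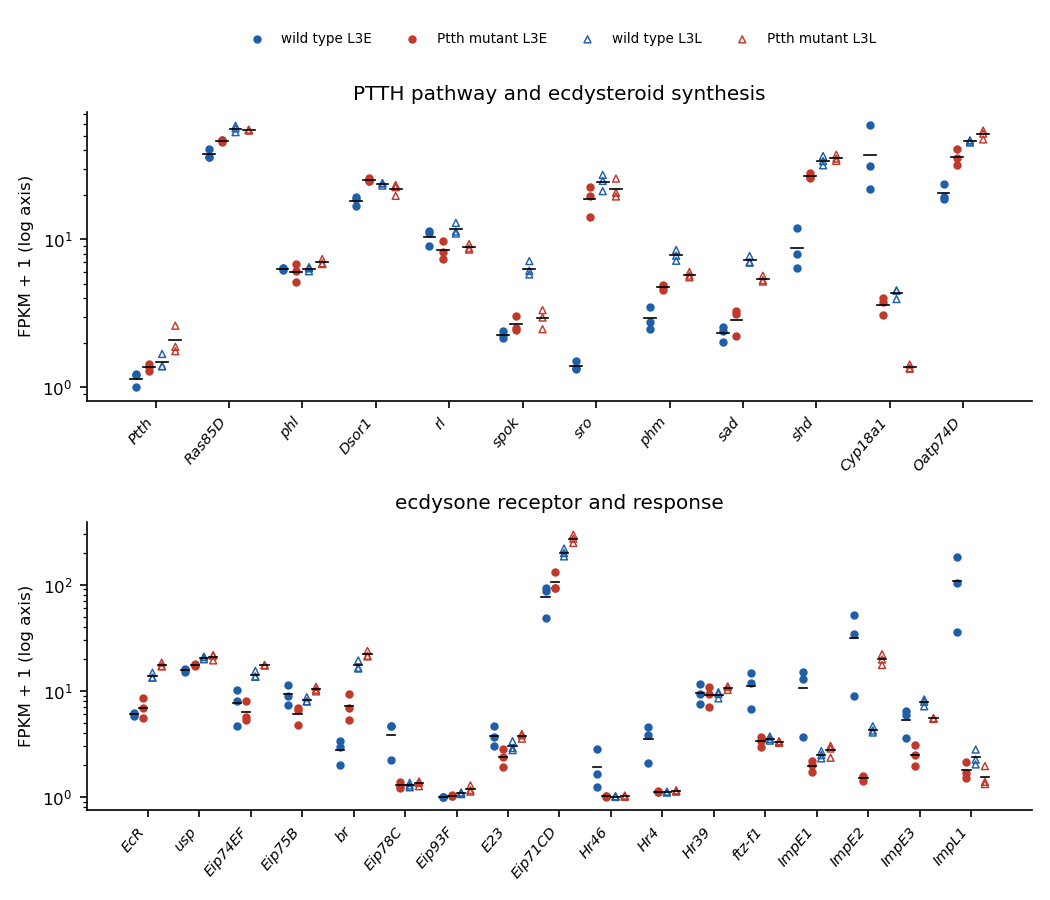
FPKM + 1 (log axis) of the PTTH and ecdysteroid genes (top) and of the ecdysone receptor and response genes (bottom) in every library, at L3E (filled circles) and at L3L (open triangles), wild type in blue and *Ptth* mutants in red, with black bars for the means of 3 libraries. At L3E *sro* and *shd* stand higher in mutants, and *Cyp18a1*, *Hr4*, *Eip78C*, *ftz-f1* and the Imp genes stand lower.

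Of the 10 largest rises, 4 were in the list of proteins that the larval fat body makes and stores for metamorphosis. All 6 genes of the list, the hexamerins, their receptor and *Fbp2*, were higher in mutants, with a median change of 7.71 against 0.02 over all genes. *Fbp2* (FBgn0000640, chromosome 2L, 9426784 to 9427917), a fat body protein related to alcohol dehydrogenase, was at 0.680, 0.760 and 1.84 FPKM in wild type and at 4829, 4469 and 4792 in mutants, 4299-fold higher (log2 11.17 ± 0.21, adjusted p = 4.9e-05). It had the largest change of all genes past the threshold with at least 10 FPKM. *Lsp2* (chromosome 3L), a hexamerin of the last instar, was at 0.0983, 0.0761 and 0.384 FPKM against 705, 364 and 375 (log2 8.61 ± 0.29, adjusted p = 0.00011). *Fbp1*, the receptor that takes hexamerins back into the fat body, was at 0.0468, 0.0544 and 0.127 against 97.2, 113 and 254 (log2 7.04 ± 0.37, adjusted p = 0.00024). These 3 genes were below 2 FPKM in every wild-type library, with replicate 3 the highest in each.

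The subunits of larval serum protein 1 were already present in wild type. *Lsp1alpha* had 15.7, 7.73 and 70.0 FPKM in the wild-type libraries and 7031, 7199.7 and 7618 in the mutant libraries (log2 8.38 ± 0.76, adjusted p = 0.00086). *Lsp1beta* was at 794, 767 and 2139.9 against 13748, 12232 and 11833 (log2 3.52 ± 0.44, adjusted p = 0.0023) and *Lsp1gamma* at 1120.2, 1177 and 3130.1 against 14784, 13421 and 13773 (log2 3.12 ± 0.44, adjusted p = 0.0035). Wild-type replicate 3 held over 2 times as much of each subunit as the other 2 wild-type libraries, and still lay below every mutant library. Summed over the 6 genes, the libraries held 1930.3 to 5342 FPKM in wild type and 37799 to 41194 in mutants. The wild-type larvae of the next stage, which are also 96 h old, held 36369 to 40066.

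Salivary glue genes, whose secreted products fix the pupa to its substrate, were mostly higher in mutants. Of the 11 genes of the list, 8 were higher (72.73%) and 1 lower (9.09%), against 10.4% and 6.78% of all genes. Their median change was 3.21. *Sgs3* had 0 reads in the 3 wild-type libraries and 19.3, 31.4 and 21.1 FPKM in mutants, at least 122-fold higher against a floor of 3 reads per wild-type library. *Sgs5* and *Eig71Ee*, also without a read in wild type, were at 7.42, 14.5 and 5.03 and at 16.7, 18.6 and 14.2 FPKM in mutants, at least 26.3-fold and 113-fold higher against the same floor. *Sgs7* was at 0.253, 0.391 and 0.911 against 49.2, 50.6 and 33.8 FPKM (log2 4.91 ± 0.23, adjusted p = 0.00021) and *Sgs8* at 2.03, 1.57 and 1.83 against 36.5, 35.5 and 27.1 (log2 3.59 ± 0.15, adjusted p = 0.00017). The last 2 are close relatives, and counting could split reads between them. One stage later *Sgs3* averaged 1683 FPKM in wild type and 3053 in mutants. *Sgs4* was at 0, 0 and 0.154 against 1.63, 1.92 and 0.657 FPKM, a call lost without mutant replicate 2 (log2 0.99) and with quantile normalization (log2 0.93), and *Sgs1* did not pass on this scale (log2 0.42, adjusted p = 0.18) but did in limma-voom on recovered reads (log2 3.11, adjusted p = 0.035). Of the new glue genes, which are expressed in the gland before the Sgs genes, *ng1* and *ng3* were higher (log2 1.75, adjusted p = 0.001 and log2 4.12, adjusted p = 0.0017) and *ng2* did not pass. *ng4* was lower, at 13.1, 7.53 and 1.64 FPKM against 0.264, 0 and 0.521 (adjusted p = 0.027), and its call was lost without any 1 library other than wild-type replicate 3 (adjusted p 0.056 to 0.089).

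Other genes among the 10 largest rises have no place in the lists above. *Obp99b* (FBgn0039685, chromosome 3R, 29716254 to 29716896), an odorant-binding protein gene with high fat body expression, was at 25.0, 13.1 and 55.5 FPKM in wild type and 15392, 9280.2 and 9214 in mutants, 362-fold higher (log2 8.64 ± 0.54, adjusted p = 0.00035). Of the 34 odorant-binding protein genes tested it was the one that was higher. *CG17105* (chromosome 2L, 10681030 to 10681775) was at 0.544, 0.505 and 0.294 against 717, 414 and 432 FPKM (log2 8.45 ± 0.23, adjusted p = 9.7e-05), and *CG32249* (chromosome 3L) at 2.47, 4.09 and 7.30 against 1576, 1040.3 and 1148 (log2 7.87 ± 0.35, adjusted p = 0.0002). *CG42500* (chromosome 3R) was at 4.79, 3.57 and 7.98 against 1469.5, 1138 and 1014 (log2 7.59 ± 0.28, adjusted p = 0.00014). All 4 were below 60 FPKM in every wild-type library and far above that in every mutant library.

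The annotated pseudogene *CR30029* (chromosome 2R, 11246105 to 11246654) and the protein-coding *CG34227* (chromosome 2R, 11248126 to 11248610) lie close together and both rose. *CR30029* was at 0, 0.343 and 2.13 FPKM in wild type and 1512, 988 and 1046 in mutants (log2 9.49 ± 0.45, adjusted p = 0.00021), and *CG34227* at 0.167, 0.259 and 0.603 against 128, 113 and 93.8 (log2 6.39 ± 0.17, adjusted p = 9.7e-05). They parted one stage later. *CG34227* then averaged 1421 FPKM in wild type and 2058 in mutants, while *CR30029* averaged 79.5 against 4106. *CR30029* was thus the one of the 10 with a change of more than 4-fold at both stages.

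**Figure D3:**
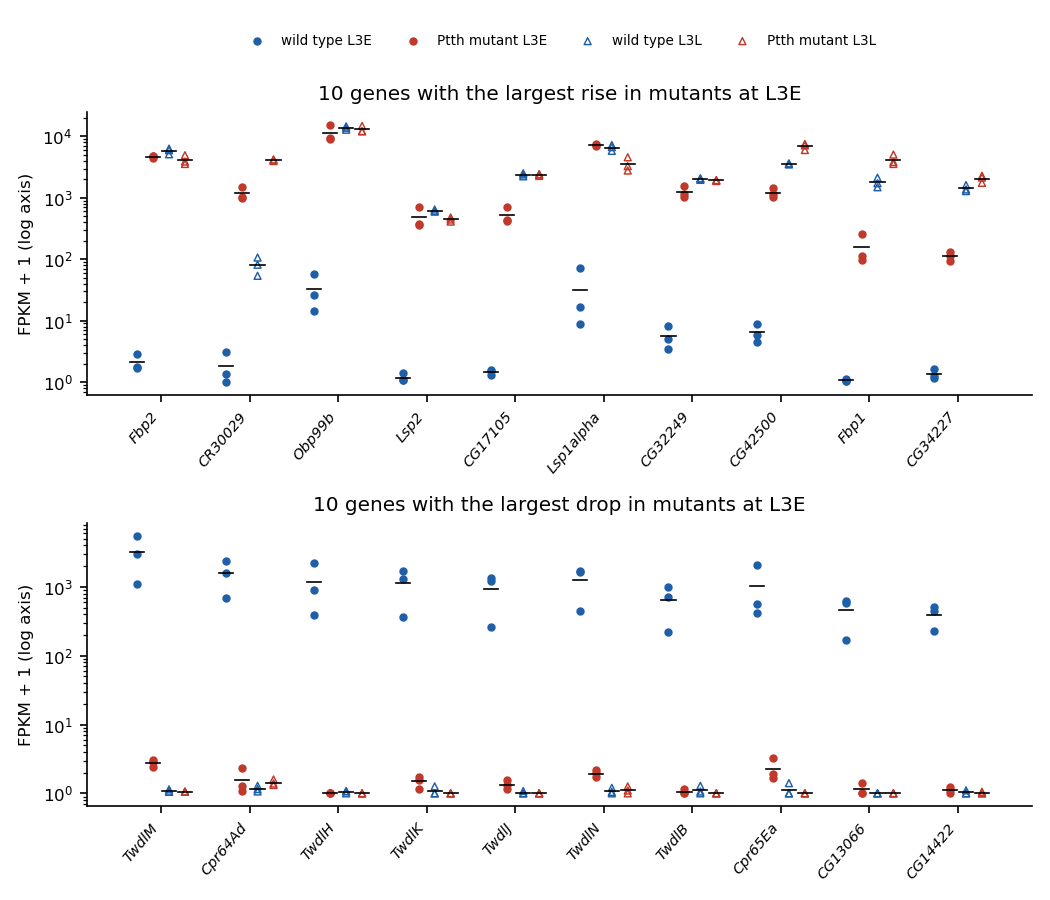
FPKM + 1 (log axis) of the 10 genes with the largest rise (top) and the 10 with the largest drop (bottom) in *Ptth* mutants at L3E, in every library at L3E (filled circles) and L3L (open triangles), with black bars for the means of 3 libraries. In the top panel the wild-type L3E libraries stand below the other 3 groups for all 10 genes, and for *CR30029* the wild-type L3L libraries also stand below both mutant groups. In the bottom panel the wild-type L3E libraries stand above the other 3 groups for all 10 genes.

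Of the 10 largest drops, 8 were in cuticle protein genes. Tweedle proteins are structural cuticle proteins. Of the 24 tested genes, 22 were lower in mutants (91.67%, against 6.78% of all genes) and none was higher. The median change was -5.79. *TwdlM* (FBgn0039434, chromosome 3R, 26619118 to 26620224) was at 5459, 3006 and 1110.1 FPKM in wild type and 1.85, 2.01 and 1.42 in mutants, 1815-fold lower (log2 -9.90 ± 0.58, adjusted p = 0.00031). *TwdlH*, in the same cluster (26633732 to 26634714), was at 2244, 912 and 393 FPKM in wild type and had 0 reads in the 3 mutant libraries, at least 4957-fold lower against a floor of 3 reads per library. *TwdlN* was at 1709, 1672 and 451 against 1.17, 0.951 and 0.703 (log2 -9.14 ± 0.55, adjusted p = 0.00032), and *TwdlK*, *TwdlJ* and *TwdlB* were also lower (log2 -9.31, -9.15 and -8.998), with mutant libraries below 1 FPKM. In each of these 6 genes wild-type replicate 3 was the lowest wild-type library and lay far above every mutant library. *TwdlO* kept the highest level in mutants of the genes called, at 1156, 1148 and 2207 FPKM in wild type and 163, 159.7 and 109 in mutants (log2 -3.33 ± 0.32, adjusted p = 0.00097). *TwdlX* (means 339 and 393 FPKM) and *TwdlF* (means 136 and 0.971 FPKM, adjusted p = 0.069) were the 2 that were not called, named here for that. The summed Tweedle level was 6578 to 19141 FPKM in wild type against 577 to 733 in mutants, and 166 to 192 in the wild-type larvae of 96 h.

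Osiris genes, a clustered insect family expressed in cuticle-secreting epithelia and trachea, were close to 0 in the mutants. Of 21 tested, 11 were lower (52.38%, against 6.78% of all genes) and none higher. The 10 that were not called were below 8 FPKM in every library of both genotypes. *Osi6* was at 505, 372 and 97.1 FPKM in wild type and 0.572, 0.302 and 0.490 in mutants (log2 -7.51 ± 0.63, adjusted p = 0.00065), and *Osi15* at 563, 285 and 125 against 0, 0.259 and 0.0564 (log2 -7.96 ± 0.54, adjusted p = 0.00042). *Osi20* and *Osi19* had 0 reads in the mutant libraries and were at 363, 212 and 81.7 and at 235, 187 and 46.8 FPKM in wild type, at least 1259.6-fold and 809.6-fold lower in mutants against the floor of 3 reads. The summed level of the family was 2645 FPKM in wild-type replicate 1, 1808 in replicate 2 and 527 in replicate 3, against 5.02 to 5.23 in mutants. The wild-type libraries differed among themselves, and the lowest of them still lay far above every mutant library.

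The Cpr, Lcp and Ccp84A families, the chitin-binding cuticle proteins, moved in both directions. Of 93 tested, 41 were lower (44.09%) and 17 higher (18.28%), against 6.78% and 10.4% of all genes. The median was -0.65, and it was -1.17 with the stricter filter and -1.31 in limma-voom. *Cpr64Ad* was at 2396, 1616 and 693 FPKM in wild type and 0.293, 1.33 and 0.0724 in mutants (log2 -9.88 ± 0.54, adjusted p = 0.00026), and *Cpr65Ea* at 2096, 561 and 411 against 2.22, 0.884 and 0.644 (log2 -8.51 ± 0.66, adjusted p = 0.00057). *Ccp84Ae* and *Cpr64Ab* also fell (log2 -8.38 and -7.03). For all 4 genes wild-type replicate 3 was the lowest wild-type library and the groups did not overlap. *Lcp65Af* was among the most abundant genes lower in mutants, at 7389.5, 5216 and 4696 against 104, 142 and 77.0 FPKM (log2 -5.74 ± 0.28, adjusted p = 0.00022). *Lcp65Ag1* had 5140.0, 4281 and 4585 against 2140.3, 2043 and 1605 (log2 -1.28 ± 0.18, adjusted p = 0.0032). *Lcp65Ac* fell just over 2-fold (log2 -1.11, adjusted p = 0.012), a call lost without mutant replicate 3 (log2 -0.93).

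The genes that rose include some of the most abundant cuticle transcripts. *Lcp4* was at 3813, 3479.5 and 6481 FPKM in wild type and 35726, 29382 and 25076 in mutants (log2 2.75 ± 0.37, adjusted p = 0.0031), and *Lcp3* at 4432, 3839 and 8049.6 against 31683, 21934 and 17122 (log2 2.15 ± 0.44, adjusted p = 0.012). *Lcp65Ab1* was at 3645, 2014 and 6455 against 19548, 19791 and 13709 FPKM (log2 2.27 ± 0.49, adjusted p = 0.015). Wild-type replicate 3 was the highest wild-type library for all 3, and remained below every mutant library. The call of *Lcp3* was lost without wild-type replicate 1 or 2 (adjusted p = 0.056 in both), and that of *Lcp65Ab1* without wild-type replicate 1 or mutant replicate 2 (adjusted p 0.052 to 0.057) and with quantile normalization (log2 1.45, adjusted p = 0.054). *Lcp1*, *Lcp2* and *Lcp9*, named here after their values were seen, averaged 173, 321 and 707 FPKM in wild type and 8583, 7002 and 9288 in mutants, and were higher (adjusted p = 0.00026, 0.00057 and 0.00098). The summed level of the list was higher in mutants (97055 to 153449 FPKM) than in wild type (53509 to 72054), although more members fell than rose.

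Genes that make and tan cuticle were also called in both directions. Of 21 genes of chitin synthesis and remodelling, 1 was lower (4.76%) and 2 were higher (9.52%). These shares were near the 6.78% and 10.4% of all genes. *Cht5*, a chitinase that digests old cuticle at the moult, was at 49.2, 61.2 and 45.7 FPKM in wild type and 2.79, 2.18 and 1.61 in mutants (log2 -4.06 ± 0.18, adjusted p = 0.0002). *Cht12* was higher (log2 1.57 ± 0.16, adjusted p = 0.0012), and *Cht9* was called at an adjusted p of 0.034 but lost the call without any 1 library other than wild-type replicate 1 (adjusted p 0.057 to 0.1). Of 18 pigmentation and tanning genes, 7 were lower (38.89%) and 3 higher (16.67%). *y* (yellow), needed for black pigment, was at 41.8, 30.7 and 11.98 against 0.138, 0.156 and 0.409 FPKM (log2 -4.40 ± 0.46, adjusted p = 0.0012). *ple* (tyrosine hydroxylase) had 41.2, 41.8 and 10.05 against 4.39, 5.61 and 5.90 FPKM, *Ddc* (dopa decarboxylase) 60.9, 33.8 and 16 against 8.26, 6.75 and 6.41, and *e* (ebony) 9.60, 12.3 and 2.63 against 0.875, 0.785 and 0.642. Wild-type replicate 3 was the lowest wild-type library for all 4. The calls of *ple* and *e* were lost without any 1 library other than wild-type replicate 3 (adjusted p 0.072 to 0.092 and 0.051 to 0.06), and that of *Ddc* without any mutant library or wild-type replicate 2 (adjusted p 0.05 to 0.064). *yellow-d2* rose from 6.96, 7.59 and 8.78 to 150.2, 109 and 95.9 FPKM (log2 3.74 ± 0.19, adjusted p = 0.00022) and *yellow-e* also rose (log2 1.90 ± 0.11, adjusted p = 0.00031).

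Ribosome biogenesis, the assembly of ribosomal subunits in the nucleolus, was represented by 33 genes. Of these, 18 were lower (54.55%, against 6.78% of all genes) and none higher. All 33 had a change below 0, and the median was -1.02. *Nop60B*, the pseudouridine synthase of the box H/ACA particles, was at 72.4, 79.7 and 72.5 FPKM in wild type and 24.5, 27.4 and 24.0 in mutants (log2 -1.53 ± 0.077, adjusted p = 0.00022). *Nop56* was at 103, 106 and 106 against 33.0, 40.9 and 38.3 (log2 -1.47 ± 0.088, adjusted p = 0.00031), and *Fib* (fibrillarin) at 189, 161 and 157 against 73.6, 67.9 and 53.9 (log2 -1.37 ± 0.14, adjusted p = 0.0012). In contrast to the cuticle genes, the wild-type libraries were nearly equal here, and their summed level was 1589 to 1648 FPKM against 721 to 803 in mutants. By role, all 6 proteins of small nucleolar particles and 3 of 4 RNA polymerase I genes were lower, and none of the 5 exosome genes passed 2-fold. Wild-type larvae of 96 h held 650.3 to 702 FPKM, below the mutants of that age.

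Of 72 mitochondrial ribosomal protein genes tested, 15 were lower (20.83%, against 6.78% of all genes) and none higher. All 72 had a change below 0, and the median was -0.79. *mRpL37* was at 58.9, 51.4 and 50.6 against 21.4, 23.2 and 19.9 FPKM (log2 -1.28 ± 0.091, adjusted p = 0.00047) and *mRpL12* at 166, 126 and 128 against 72.5, 56.8 and 47.97 (log2 -1.24 ± 0.19, adjusted p = 0.0042). The mutant libraries lay below the wild-type libraries for both. Of 88 cytosolic ribosomal protein genes tested, none was lower and 1, the weakly expressed *RpL10Aa*, was higher, with 0 reads in wild type and 3.41, 2.23 and 1.69 FPKM in mutants, at least 8.83-fold higher. Their median was -0.11, and it turned to 0.02 without mutant replicate 3 and to 0.01 without wild-type replicate 1. None of 19 cytosolic tRNA synthetase genes passed 2-fold, though all 19 had a change below 0 (median -0.44). Of 49 translation factors, 7 were higher (14.29%, against 10.4% of all genes) and none lower. They include *eIF4E-3*, a testis form of the cap-binding protein, at 3.04, 2.66 and 2.46 against 11.6, 8.04 and 8.09 FPKM (log2 1.45 ± 0.17, adjusted p = 0.0018), and *eIF4E-4*, at 0, 0 and 0.0709 against 3.01, 2.63 and 3.04 (log2 1.92 ± 0.069, adjusted p = 0.00014), from 1 wild-type read. Testis markers, described below, rose in the same libraries, and their part in these calls was not tested.

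Regulators of growth gave few calls. Of 20 insulin and TOR pathway genes, 2 were lower and none higher. *Thor* (4E-BP), a translation repressor, was at 697, 276 and 267 FPKM in wild type and 159, 131 and 129 in mutants (log2 -1.41 ± 0.40, adjusted p = 0.036). Wild-type replicate 1 stood apart, and without it the change was -0.96, under 2-fold. The call was also lost without wild-type replicate 2 or any 1 mutant library (adjusted p up to 0.1). *Ilp8*, a relaxin-like peptide that delays metamorphosis, was at 2.62, 1.30 and 1.69 against 0, 0.276 and 0.321 FPKM (log2 -1.24 ± 0.20, adjusted p = 0.0055). Of 29 replication and cell cycle genes, 2 were higher (6.9%, against 10.4% of all genes). They were the mitotic regulators *stg* (Cdc25) and *aurA* (log2 1.03, adjusted p = 0.0043 and log2 1.09, adjusted p = 0.0082), both near 2-fold. *stg* fell under 2-fold without mutant replicate 2 or 3 or wild-type replicate 1 (log2 0.88 at the lowest), and *aurA* without mutant replicate 1 or wild-type replicate 2 (log2 0.98 at the lowest). No gene of the proteasome (32 tested) was called. Among 19 autophagy genes only *Atg8b*, the testis paralogue, was higher (log2 1.88 ± 0.30, adjusted p = 0.0055).

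Of 50 digestive enzyme genes tested, 19 were higher in mutants (38.0%, against 10.4% of all genes) and none lower (median 0.71). *Jon65Aiv*, a larval serine protease, was at 6085, 5127 and 5263 FPKM in wild type and 17015, 13204 and 12397 in mutants (log2 1.36 ± 0.26, adjusted p = 0.01), and *Jon66Ci* at 4138, 2687 and 3002 against 12183, 9260.2 and 8104 (log2 1.59 ± 0.28, adjusted p = 0.0073). The lysozyme *LysS* was at 383, 273 and 303 against 3172, 2321 and 2056 FPKM (log2 2.96 ± 0.21, adjusted p = 0.00048), and the maltase *Mal-A4* at 33.7, 28.6 and 40.0 against 192, 164 and 138 (log2 2.24 ± 0.17, adjusted p = 0.00053). Mutant replicate 1 was the highest library for all 4, and no genotypes overlapped. With quantile normalization *Jon65Aiv* and *Jon66Ci* were no longer called (log2 0.31 and 0.87), and *Jon65Aiv* also lost its call without wild-type replicate 2 (adjusted p = 0.05). Members of the Jonah and lysozyme families are near copies of each other, and their separate values are uncertain to that extent.

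Among the detoxification genes, of 68 cytochrome P450 genes tested, 20 were higher (29.41%) and 4 lower (5.88%), against 10.4% and 6.78% of all genes. The share of lower calls was thus near that of all genes. *Cyp6t1* was at 0.455, 0.774 and 1.43 FPKM in wild type and 18.4, 17.4 and 16.9 in mutants (log2 3.33 ± 0.20, adjusted p = 0.00033), *Cyp4d8* at 3.87, 4.83 and 5.58 against 37.7, 30.4 and 31.8 (log2 2.58 ± 0.15, adjusted p = 0.00029), and *Cyp4g1*, the oenocyte enzyme that makes cuticular hydrocarbons, at 128, 126 and 124 against 264, 263 and 280.1 (log2 1.09 ± 0.053, adjusted p = 0.00022). The values of *Cyp4g1* were nearly the same within each genotype. Of 35 glutathione S-transferases, 5 were lower (14.29%) and 3 higher (8.57%), against 6.78% and 10.4% of all genes. *GstD2* was at 367, 318 and 429.8 against 56.0, 52.5 and 44.8 FPKM (log2 -2.83 ± 0.14, adjusted p = 0.00022), and *GstE5* at 8.73, 6.16 and 9.36 against 40.1, 39.0 and 34.7 (log2 2.12 ± 0.16, adjusted p = 0.00053). The 5 lower ones were *GstD2*, *GstD4*, *GstD7*, *GstD8* and *GstE9*, and the GstD genes are related copies. One stage later *GstD2* was again lower, with means of 89.6 FPKM in wild type and 13.8 in mutants.

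In energy metabolism the shares of called genes were near or below those of all genes, 10.4% higher and 6.78% lower. Of 18 lipid genes, 2 were higher (11.11%) and 1 lower (5.56%). The lipase *mag* (magro), secreted by the anterior gut, was at 93.0, 76.5 and 98.7 FPKM in wild type and 2066, 1612 and 1636 in mutants, 19.8-fold higher (log2 4.29 ± 0.15, adjusted p = 0.00012), and the lipase *Lip4* was also higher (log2 1.29 ± 0.27, adjusted p = 0.014). *ACC*, acetyl-CoA carboxylase, which commits carbon to fatty acid synthesis, was at 147, 218 and 208 against 45.3, 66.7 and 80.2 FPKM (log2 -1.58 ± 0.26, adjusted p = 0.0058). The genotypes did not overlap for any of the 3. Of 16 glycolysis genes, 1 was higher and 1 lower (6.25% each). *ImpL3* (lactate dehydrogenase) was at 297, 231 and 246 against 831, 751 and 677 FPKM (log2 1.55 ± 0.13, adjusted p = 0.00067), and *Hex-C* at 79.5, 81.3 and 77.8 against 17.9, 18.9 and 15.7 (log2 -2.13 ± 0.081, adjusted p = 0.00014). The summed level of the glycolysis list was 8444 to 10291 FPKM in wild type and 13673 to 15869 in mutants.

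Innate immune genes gave calls among the effectors and recognition proteins. Of 30 antimicrobial peptide genes tested, 5 were lower (16.67%) and 1 higher (3.33%), against 6.78% and 10.4% of all genes, with a median of -0.56. That median was -1.61 with the stricter filter, -1.49 in limma-voom and -1.53 with a pseudocount of 0.1. *AttC* was at 92.2, 86.5 and 89.5 FPKM in wild type and 11.4, 22.4 and 17.3 in mutants (log2 -2.38 ± 0.23, adjusted p = 0.0011), *DptB* at 116, 92.2 and 119 against 27.5, 18.6 and 36.2 (log2 -1.99 ± 0.25, adjusted p = 0.0025) and *Mtk* at 28.2, 33.3 and 55.1 against 8.94, 14.0 and 5.71 (log2 -1.94 ± 0.38, adjusted p = 0.011). As for all called genes, no mutant library of any of the 3 reached a wild-type library. *AttB* (log2 -1.92, adjusted p = 0.014), a near copy of *AttA*, lost its call without mutant replicate 2 (adjusted p = 0.051), and *IM3* (BomS3, log2 -2.85, adjusted p = 0.031) without mutant replicate 1 or 3 or wild-type replicate 1 or 2 (adjusted p 0.088 to 0.096). *Listericin* went the other way, at 2.70, 1.81 and 3.74 against 32.9, 18.4 and 24.9 FPKM (log2 2.81 ± 0.28, adjusted p = 0.0011). The summed level of the peptides was 445 to 542 FPKM in wild type and 148 to 206 in mutants.

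Of 12 peptidoglycan recognition proteins, 3 were higher (25.0%) and 1 was lower (8.33%), against 10.4% and 6.78% of all genes. *PGRP-SC2*, an amidase that degrades peptidoglycan and dampens Imd signalling in the gut, was at 124, 78.9 and 100.6 FPKM in wild type and 534, 441 and 428 in mutants (log2 2.21 ± 0.19, adjusted p = 0.00067). The related *PGRP-SC1b* was at 26.9, 15.7 and 16.4 against 54.3, 54.9 and 46.2 (log2 1.39 ± 0.22, adjusted p = 0.005), and *PGRP-SA*, a sensor of the Toll pathway, at 22.1, 16.5 and 21.4 against 72.9, 48.1 and 59.7 (log2 1.54 ± 0.19, adjusted p = 0.0021). *PGRP-SB1*, an amidase with antibacterial activity, was lower (log2 -1.66 ± 0.21, adjusted p = 0.0026). None of 19 Imd and Toll signalling genes passed the threshold. *Rel* (Relish), the NF-κB factor of the Imd pathway, averaged 51.0 FPKM in wild type and 27.2 in mutants (log2 -0.86 ± 0.17, adjusted p = 0.011), under 2-fold, and *PGRP-LC*, its upstream receptor, 9.92 and 10.4 FPKM (adjusted p = 0.69).

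Heat shock genes were mostly lower, with 10 of 13 tested called (76.92%, against 6.78% of all genes) and none higher. The median was -1.43, and -2.35 with the stricter filter and -2.75 in limma-voom. *Hsp70Bb* was at 62.7, 47.8 and 40.3 FPKM in wild type and 0.690, 0.746 and 0.622 in mutants (log2 -4.90 ± 0.17, adjusted p = 0.00013). *Hsp26*, a small heat shock protein, was at 364, 277 and 266 against 54.9, 43.0 and 37.2 (log2 -2.72 ± 0.19, adjusted p = 0.00043), and *Hsp83*, the abundant Hsp90, at 771, 614 and 543 against 247, 267 and 250.0 (log2 -1.32 ± 0.14, adjusted p = 0.0014). The groups did not overlap for any of them. The Hsp70 genes are near-identical copies, so the split of reads among *Hsp70Ab*, *Hsp70Bb*, *Hsp70Bbb* and *Hsp70Bc* is uncertain, but all 4 were below 1 FPKM in every mutant library.

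Other hormonal lists gave few calls, 12.5% of the juvenile hormone genes being higher against 10.4% of all genes. Of 8 juvenile hormone genes, 1 was higher: *Jheh2*, an epoxide hydrolase of hormone breakdown, at 29.3, 28.3 and 43.5 FPKM in wild type and 102, 96.1 and 90.8 in mutants (log2 1.51 ± 0.18, adjusted p = 0.0018). None of 8 moulting neuropeptide and receptor genes was called, and all were below 10 FPKM on average in both genotypes. Of 6 imaginal disc growth factors, *Idgf1* was lower (log2 -1.61 ± 0.13, adjusted p = 0.00065). A p that misses the threshold does not show that such genes were alike in the genotypes.

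Markers of cell types were examined for what the pools may hold. All 13 muscle genes had a change above 0 and none passed 2-fold. None of 7 neuronal and none of 11 imaginal disc markers was called. *PPO2*, a crystal cell marker among 9 haemocyte genes, was at 81.3, 91.2 and 115 against 450.04, 378 and 335 FPKM (log2 2.01 ± 0.17, adjusted p = 0.00065), and *Uro* (urate oxidase), among 4 Malpighian tubule markers, at 13.4, 9.90 and 20.3 against 358, 301 and 271 (log2 4.37 ± 0.26, adjusted p = 0.00032). Both were higher in every mutant library by more than 2-fold, and the other markers of their lists were not called.

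Of 21 testis genes tested, 10 were higher (47.62%, against 10.4% of all genes) and none lower, the largest share of any marker list. *betaTub85D*, the testis beta-tubulin, was at 1.06, 0.853 and 0.596 FPKM in wild type and 27.1, 18.6 and 22.7 in mutants (log2 3.69 ± 0.18, adjusted p = 0.00021). *Mst87F*, a sperm component, was at 1.43, 1.61 and 0.352 against 20.9, 10.7 and 14.2 (log2 2.94 ± 0.35, adjusted p = 0.002) and *loopin-1* at 1.74, 1.96 and 1.5 against 26.7, 23.2 and 24.3 (log2 3.24 ± 0.11, adjusted p = 0.00011). The summed level of the list was 28.7 to 34.7 FPKM in wild type and 157 to 235 in mutants, and 114 to 167 in the wild-type larvae of 96 h. The 3 male dosage compensation genes summed to 32.1 to 37.9 FPKM in wild type and 39.0 to 50.2 in mutants at L3E, and none was called. The yolk protein genes, a female product of the adult fat body, summed to 3.27 to 11.4 FPKM in wild type and 7.85 to 13.3 in mutants. The share of males in the pools and the age of their testes cannot be told apart, and the part of either in the many weak genes that were higher in mutants was not tested.

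**Figure D4:**
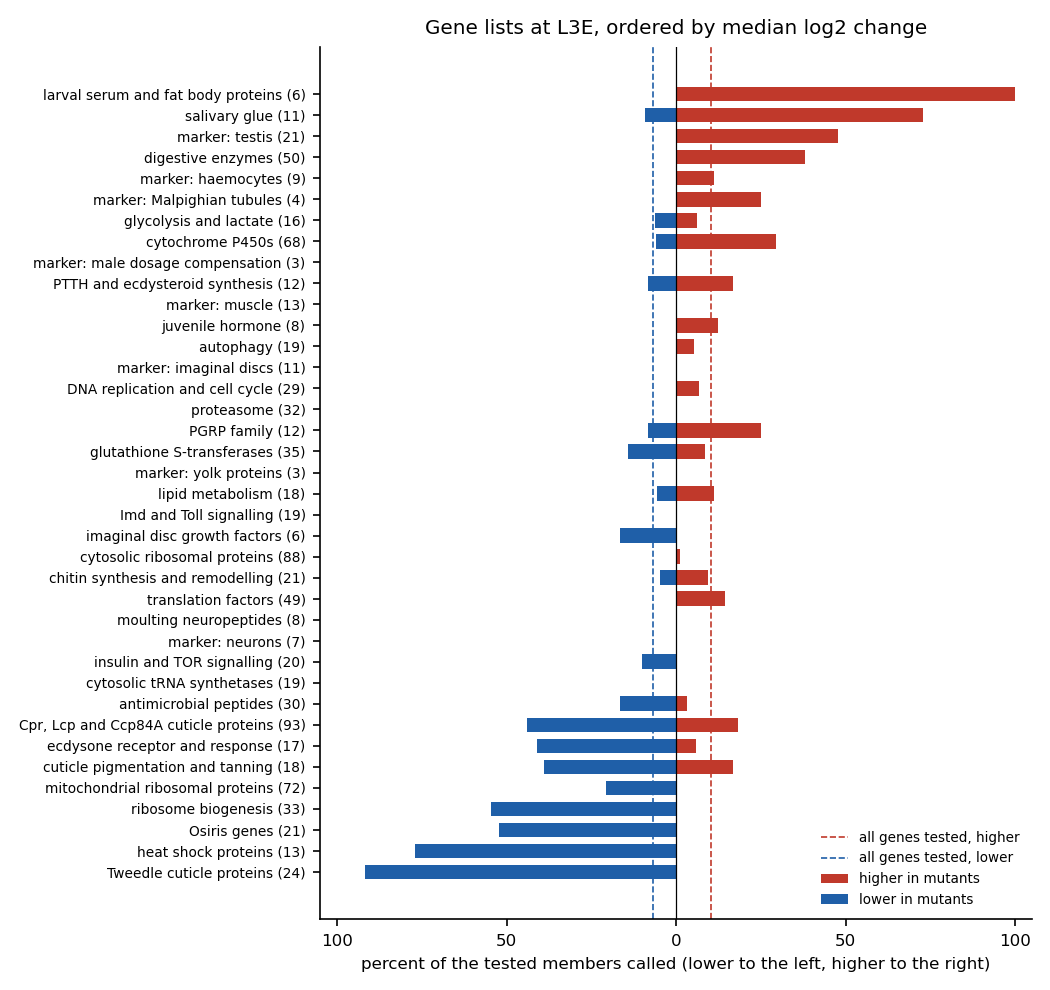
Percent of the tested members of each gene list called lower (blue, to the left) and higher (red, to the right) in *Ptth* mutants at L3E, with the number of tested members in brackets and lists ordered by their median change. Dashed lines mark the 6.78% and 10.4% of all 12282 genes called lower and higher. The Tweedle, heat shock, Osiris and ribosome biogenesis lists reach furthest to the left, and the larval serum, glue and testis lists furthest to the right.

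The mutant change at L3E was compared with that at L3L, the one other stage tested (late in the third instar, 24 h before pupariation, wild type 96 h AEL and mutants 120 h AEL) by an interaction term over 12 libraries. The mutant change differed between the stages by more than 2-fold for 1602 genes (13.0%), 836 of them more positive and 766 more negative at L3E, and 1075 of the 1602 were also called at L3E. At L3L 1328 genes were called, 1004 higher and 324 lower. Genes named for their L3E change enter this comparison with the values they were chosen by, which favours a difference between the stages, so their interactions are given as a description. *Fbp2* averaged 5798 FPKM in wild type and 4129 in mutants at L3L, a difference of -0.50 that did not pass (adjusted p = 0.057), and the interaction was 11.67 ± 0.28 (adjusted p = 1.2e-08). *TwdlM* averaged 0.0857 and 0.0558 FPKM at L3L, with an interaction of -9.87 ± 0.62 (adjusted p = 4.6e-06). *Nop60B* averaged 23.6 and 23.1, with an interaction of -1.50 ± 0.091 (adjusted p = 4.3e-06). Some genes reversed, among them *Lcp3*, with 30354 FPKM in wild type and 5509 in mutants at L3L (log2 -2.59, adjusted p = 0.0056). *Lcp65Ab1* and *Lsp1gamma*, higher at L3E, were lower in mutants at L3L (log2 -1.87, adjusted p = 0.00092 and log2 -1.23, adjusted p = 0.0079). *ImpE2*, lower at L3E, averaged 3.30 FPKM in wild type and 18.8 in mutants at L3L (log2 2.20, adjusted p = 0.00044).

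Other genes were on the same side at both stages. The antimicrobial peptides *AttC*, *DptB* and *Mtk* had means of 50.9, 73.7 and 26.6 FPKM in wild type and 18.6, 23.9 and 7.96 in mutants at L3L, where none passed the test (adjusted p = 0.17, 0.17 and 0.14), and their interactions did not pass either (adjusted p = 0.58, 0.96 and 0.97). *GstD2* had an interaction of -0.20 ± 0.25 (adjusted p = 0.58). *betaTub85D* averaged 16.7 FPKM in wild type and 56.1 in mutants at L3L (log2 1.69, adjusted p = 0.00068) and its rise was larger at L3E (interaction 2.00 ± 0.21, adjusted p = 8.4e-05). By contrast, *sro* averaged 23.4 against 21.0 FPKM at L3L, where it did not differ by the test (adjusted p = 0.42).

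**Figure D5:**
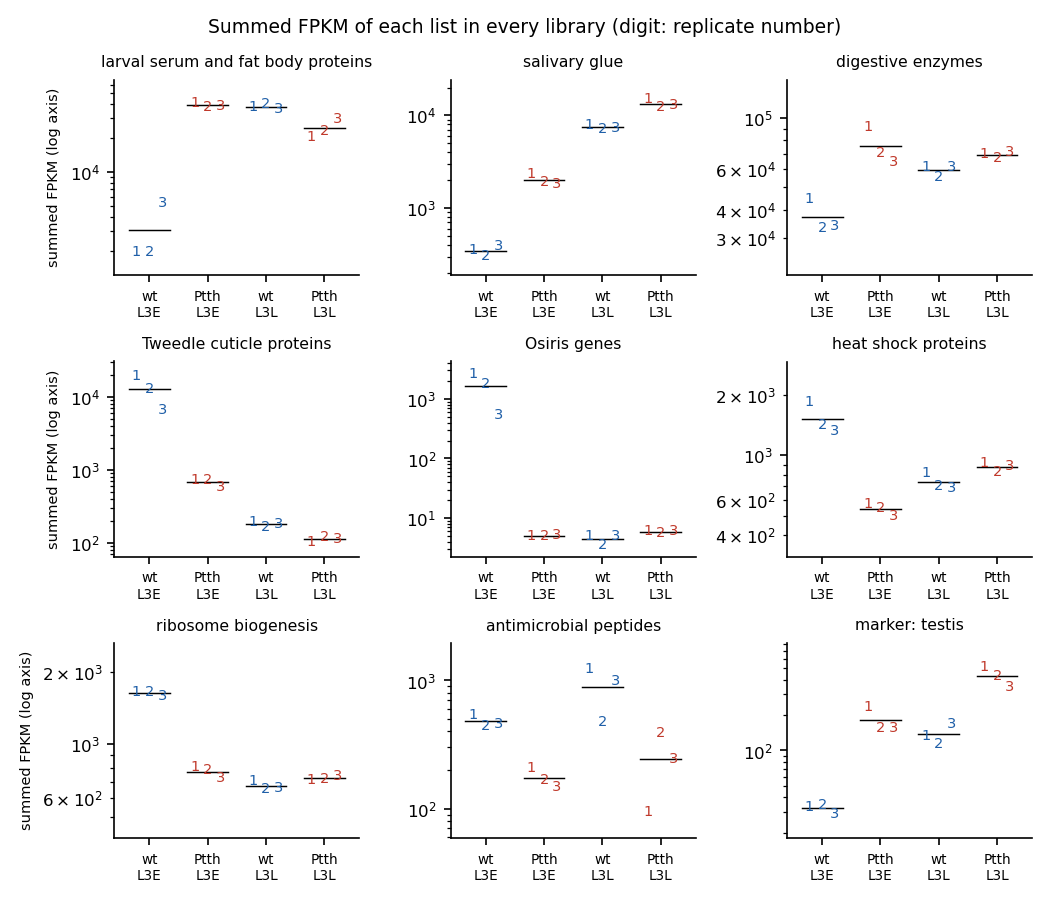
Summed FPKM (log axis) of 9 gene lists in every library of wild type (wt, blue) and *Ptth* mutants (red) at L3E and L3L. Each digit is a library, placed by its value and named by its replicate number, and black bars are means of 3 libraries. Wild-type L3E replicate 3 lies nearest to the mutant L3E libraries for larval serum, Tweedle and Osiris genes, and mutant L3E and wild-type L3L libraries, both of 96 h, lie close together for larval serum, Osiris and ribosome biogenesis genes and apart for glue, Tweedle and antimicrobial peptide genes.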

How the data were processed

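RNA-Seq of whole animals was deposited as one table of FPKM values, which the authors made by scaling read counts per gene (annotation BDGP6). Their notes list HISAT2 2.0.5 and featureCounts 1.5.0-p3, while the study's methods name other tools, so the exact pipeline is uncertain. Columns were matched to samples by name, and 6 libraries of L3E and 6 of L3L were used. Genes with at least 3 FPKM in any library of the series were kept. limma 3.58.1 (R 4.3.3) was fitted on log2(FPKM + 1) with a mean trend, with p-values adjusted by Benjamini-Hochberg. FPKM values gave whole reads for all values to within 0.001 reads, and limma-voom on these was an alternative. On simulated data 199 of 200 changed genes were recovered among 8743 genes. The simulation held only well-covered genes, changes well above 2-fold, and the same spread setting for all genes. It does not measure recovery of weak genes, of changes near 2-fold or with replicates as unequal as these. Reads per library were 16712549 to 22520433. Named genes were the 10 largest changes each way among called genes without overlap and with a mean of at least 10 FPKM. Others were the 5 most abundant each way and all members of 4 lists. From each other list up to 4 were taken by change and 2 by level. The members and lists were chosen with earlier results of these data known. Sums were made with pandas 2.3.3 and figures with matplotlib 3.10.9 under Python 3.11.15. Alternatives were another filter, pseudocount, threshold, normalization and fit, a replicate block and leaving out each library.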

Additional observations from a re-analysis of the deposited data

Results flagged for a closer look

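The change in *Ptth* mutants differed between L3E and L3L, by the interaction term of the fit over 12 libraries, for the genes below. They were named for the size or abundance of their L3E change, which favours such a difference, so the values are a description and do not show that a change is particular to L3E. Values are the log2 change at L3E minus that at L3L. Storage protein genes had differences of 11.67 for *Fbp2*, 9.08 for *Lsp2*, 5.82 for *Fbp1*, 9.30 for *Lsp1alpha* and 4.35 for *Lsp1gamma*. The other genes with the largest rises had 8.72 for *Obp99b*, 3.76 for *CR30029*, 8.46 for *CG17105*, 7.95 for *CG32249*, 6.65 for *CG42500* and 5.86 for *CG34227*. Among the Tweedle genes the differences were -9.87 for *TwdlM*, -9.79 for *TwdlH*, -9.20 for *TwdlK*, -9.11 for *TwdlJ*, -9.18 for *TwdlN* and -8.85 for *TwdlB*. Other cuticle genes had -10.17 for *Cpr64Ad*, -8.35 for *Cpr65Ea*, -2.94 for *Lcp65Af*, 3.00 for *Lcp4*, 4.73 for *Lcp3*, 4.14 for *Lcp65Ab1* and 3.52 for *Lcp65Ag1*. The remaining values were -8.45 for *CG13066*, -8.36 for *CG14422* and 1.11 for *Jon65Aiv*. The L3L larvae were older than the L3E larvae of the same genotype, and the sources of these differences were not tested.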

How the results depend on the processing

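Of 159 genes named by the rule, none reversed under the alternatives, 138 of them being tested under the stricter filter. Genes named outside the rule were not run under the alternatives. With 3 FPKM in at least 3 of the 6 libraries, 1390 genes were called, 679 of them higher. limma-voom on recovered reads called 3236, with 2061 higher, and 2525 genes by the interaction. A pseudocount of 0.1 gave 1985 higher genes and 2515 by the interaction. At 1.5-fold 3637 were called, 2113 higher and 1524 lower. The fit of all 48 libraries called 2157, no filter 2152 and quantile normalization 1924. Leaving out 1 library gave 1875 to 2163 calls, 1103 to 1321 higher and 744 to 913 lower, and 1462 to 1720 by the interaction. A replicate block gave 2072 calls. Deviations from the group means correlated by 0.33, 0.048 and 0.017 for same-numbered libraries, and by -0.384 to 0.391 for the other pairs. With 3 libraries per group these values cannot show whether same-numbered libraries shared a batch. The main fit left them unpaired. The medians of some lists changed sign. With quantile normalization that of Imd and Toll signalling was 0.0818, of yolk proteins -0.1115 and of imaginal discs -0.0168, and with the stricter filter that of imaginal discs was -0.2207. Leaving out 1 library, the medians ranged from -0.2403 to 0.0163 for cytosolic ribosomal proteins, from -0.0968 to 0.0481 for lipid metabolism, from -0.0647 to 0.1335 for glutathione S-transferases and from -0.0002 to 0.1687 for the proteasome. The causes were not tested. Depth limits weak genes most, since *Ptth* rested on 7 and 17 reads.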

Other observations

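The gene groups below were picked after their values were seen and carry no test as groups. Of all genes tested, 6.78% were lower and 10.4% higher. A stretch of chromosome 3L (16249560 to 16333782, BDGP6) held 26 tested genes named CG1304x to CG1306x, of which 17 were lower in mutants and none higher, with a median change of -2.90. Over all 40 tested genes of the stretch 21 were lower and none higher. *CG13051* averaged 1352 FPKM in wild type and 11.2 in mutants (log2 -6.76 ± 0.34, adjusted p = 0.00022), and *CG13069* 826 and 2.24 (log2 -7.91 ± 0.42, adjusted p = 0.00024).

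All 8 sperm leucylaminopeptidase genes were higher, against 10.4% of all genes, with a median of 3.17. *S-Lap1* was at 2.22, 1.66 and 1.72 FPKM in wild type and 45.4, 32.7 and 32.0 in mutants (log2 3.70 ± 0.17, adjusted p = 0.00021), with no overlap. Of 10 basement membrane genes 3 were lower, against 6.78% of all genes, and none higher. The collagen IV gene *vkg* (viking) was at 286, 419.7 and 379.5 against 96.5, 138 and 144 FPKM (log2 -1.51 ± 0.21, adjusted p = 0.0035), while *LanA* was at 37.6, 62.9 and 44.4 against 41.1, 56.4 and 70.3 (log2 0.21 ± 0.27, adjusted p = 0.58). Of 6 genes of the Spätzle family, secreted ligands of Toll receptors, 5 were lower, against 6.78% of all genes. *spz3* was at 21.3, 20.4 and 11.8 against 2.18, 2.71 and 2.04 FPKM (log2 -2.47 ± 0.24, adjusted p = 0.0011), and *spz* itself was under 2-fold (log2 0.37 ± 0.071, adjusted p = 0.01). Of 83 oxidative phosphorylation genes 10 were higher and 1 lower, with a median of 0.04, a share of higher calls near the 10.4% of all genes.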
